A study of Mus musculus with 13 samples.

Results

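The genes described here encode voltage-gated, calcium-gated and inward-rectifier potassium channels, their auxiliary subunits, and the HCN channels, in neurons sorted from mouse dorsal root ganglia (DRG). Members were taken by gene symbol, without regard to expression. They are the Kcna, Kcnb, Kcnc, Kcnd, Kcnf, Kcng, Kcnh, Kcnj, Kcnq, Kcns, Kcnt and Kcnv genes, the calcium-gated Kcnma and Kcnn genes, the auxiliary Kcnab, Kcnip, Kcnmb and Kcne genes, and the Hcn genes. This gave 81 of the 41388 genes in the files, and the 14 two-pore-domain Kcnk genes were not members. Of the 81, 66 passed the filter on low counts and were tested, among 15406 genes tested in all. The other 15 had at most 0.125 RPKM as a mean over libraries, and Kcnj5 and Kcne1 had no read in any library.

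Potassium channels open a path for potassium ions out of the cell, which holds the membrane potential down and ends the action potential. Voltage-gated (Kv) subunits of the Kv1 to Kv4 families form channels that differ in speed and inactivation. The Kv4 channels carry the fast A-type current of small sensory neurons, and their cytoplasmic KChIP partners set its size and kinetics. Kv7 channels carry the M current, BK and SK channels open on calcium, Slack channels open on sodium, inward rectifiers stabilise the resting potential, and HCN channels pass a depolarising current that is switched on by hyperpolarisation. In DRG neurons these currents are known to set firing threshold and spike pattern.

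The cells came from mice at 3 months of age that carry enhanced green fluorescent protein at Ret, a receptor for growth factors of the GDNF family, and were sorted by that fluorescence. The labels give the genotype as Tg(Ret-EGFP)SJ on C57BL/6, whereas the design text describes heterozygotes for a knock-in at Ret on C57BL/6J, and both wordings cover every group. Ganglia of levels L3, L4 and L5 (L345) or of L6 and S1 (L6S1) were pooled from 2 to 9 mice per library. Each of female L345, female L6S1 and male L345 has 3 libraries and male L6S1 has 4, which makes 13, named A to F as the labels letter them. All groups carry the reporter, so no group is without it. The labels name pools of mice that add up to 61, and whether the same mice supplied both levels is not stated.

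The libraries held between 13030096 and 27011995 counts, and 3 reads correspond to 0.111 to 0.230 CPM, the count scaled to the library total. The pan-neuronal genes Rbfox3 and Tubb3 were present in every library, at no less than 64.6 and 2819 CPM, and Ret at 87.2 to 221 CPM. The leukocyte gene Ptprc stayed at or under 0.744 CPM and was at 0 in 3 libraries. Male L6S1 D and E stood apart from the other 11 libraries. Channel genes took 0.218% of the counts of D and 0.177% of those of E, against 0.309% to 0.367% in the others. In D and E 4 peptidergic markers (Calca, Tac1, Gfra3 and Adcyap1) summed to 21952 and 28805 CPM, against 7135 to 13107 CPM in the others. Calca and Tac1 made up most of this sum, and both were higher in D and E than in any other library. Gfra3 (403 and 380 CPM) and Adcyap1 (185 and 264 CPM) lay within the range of the other libraries. The 5 nonpeptidergic markers (Mrgprd, P2rx3, Gfra2, Plxnc1 and Lpar3) summed to 647 and 299.5 CPM, against 843 to 1563 CPM. Of these, P2rx3 in D and Lpar3 in both D and E lay within the range of the other libraries. The 7 immune markers summed to 19.1 and 25.8 CPM in D and E, against 7.20 to 15.9 CPM, and the glial marker Fabp7 stood at 549 and 607 CPM, against 113 to 258 CPM. Their part in the results below was not tested. Values without both libraries stand beside the counts of members and the fold changes of single genes that rest most on male L6S1.

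Levels between genes are compared as RPKM, which is CPM per kilobase of exon. Auxiliary subunits led the list. The mean over 13 libraries was 139 RPKM for Kcnip4, 99.2 RPKM for Kcnip2, 86.5 RPKM for Kcnmb1 and 65.7 RPKM for Kcnab2, and the first pore-forming subunit in order was Kcnd1 with 48.6 RPKM. These 5 genes made up 62.7% to 69.5% of the summed RPKM of all 81 members in each library. Only 11 members exceeded 10 RPKM, 25 lay between 1 and 10 RPKM, 31 between 0.1 and 1 RPKM, and 14 at or under 0.1 RPKM. The median of the tested members was 1.22 RPKM, against 3.22 RPKM for all genes tested.

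Upstream sequences are shown for the members on which the results turn most: Kcnmb1 and Kcnip2, which are among the most abundant, and Kcnj9, which had the largest fold difference between spinal levels. Each is the run of 250 bases before the RefSeq start of the gene (assembly GRCm38.p6), written 5′ to 3′ on the gene's own strand, with CG dinucleotides in capitals. The windows lie at chr11:33962763-33963012 (plus strand) for Kcnmb1, chr19:45816064-45816313 (minus strand) for Kcnip2 and chr1:172329323-172329572 (minus strand) for Kcnj9, and none overlaps an annotated exon.
Kcnmb1: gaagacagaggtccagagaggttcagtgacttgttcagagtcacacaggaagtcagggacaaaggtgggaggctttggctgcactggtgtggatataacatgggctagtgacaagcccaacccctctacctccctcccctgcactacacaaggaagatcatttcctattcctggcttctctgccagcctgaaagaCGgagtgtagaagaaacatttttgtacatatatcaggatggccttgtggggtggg
Kcnip2: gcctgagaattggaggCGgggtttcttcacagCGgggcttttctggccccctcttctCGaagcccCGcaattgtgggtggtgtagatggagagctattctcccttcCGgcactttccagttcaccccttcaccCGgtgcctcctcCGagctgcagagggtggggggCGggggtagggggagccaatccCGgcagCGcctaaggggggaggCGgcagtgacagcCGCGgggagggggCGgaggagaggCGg
Kcnj9: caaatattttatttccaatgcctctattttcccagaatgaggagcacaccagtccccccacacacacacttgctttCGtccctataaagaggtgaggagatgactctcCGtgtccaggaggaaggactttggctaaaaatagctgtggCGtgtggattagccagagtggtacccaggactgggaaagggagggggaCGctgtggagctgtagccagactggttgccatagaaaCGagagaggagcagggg
The Kcnmb1 window held 1 CG at a GC content of 50.8%, although its gene was the third of the 81 in mean RPKM. The Kcnip2 window held 15 CG at 66.8% GC, and that of Kcnj9 held 5 at 52.0% GC. Over all 32851 windows of this length the median was 6 CG, and 7.87% of them held none. Of the 81 members, 58 matched the RefSeq table, with a median of 9.5 CG. The median was also 9.5 CG in the 26 matched members over 1 RPKM and 5.5 CG in the 10 at or under 0.1 RPKM, with ranges of 1 to 31 and 1 to 20 that overlap almost fully. The letters TATAAA, searched on both strands, occurred for 3 of 58 matched members (5.17%), Kcnj9 among them, against 12.4% of all windows.

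**Figure D1:**
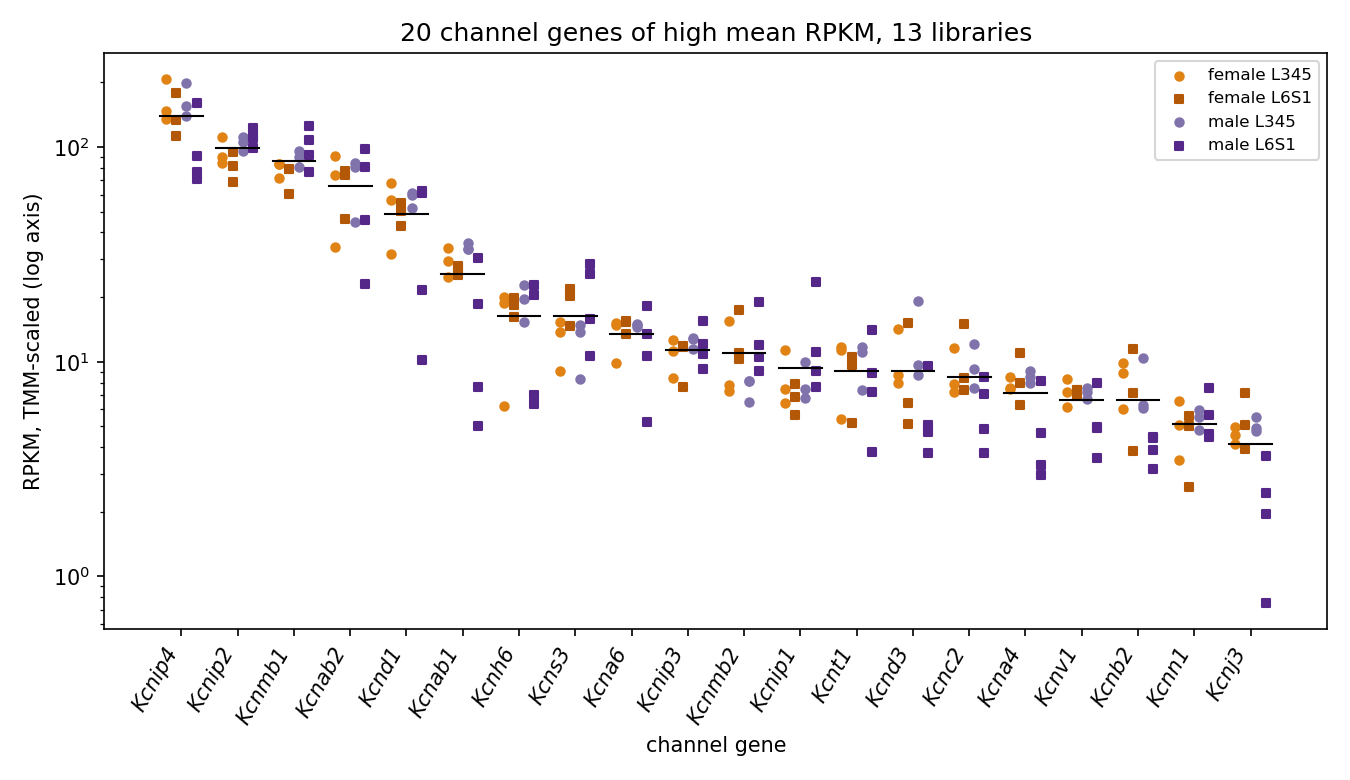
RPKM (log axis, scaled with TMM factors) of 20 channel genes with a high mean, for each of 13 libraries; circles are L345, squares L6S1, orange females, purple males, and the black line is the mean over all libraries. Kcnip4, Kcnip2, Kcnmb1, Kcnab2 and Kcnd1 lead, and the widest scatter among the leading 6, in Kcnd1 and Kcnab1, comes from low male L6S1 libraries.

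The A-type complex was the most abundant. Among Kv4 pores, Kcnd1 exceeded Kcnd3 in 13 of 13 libraries, by a median of 6.38 times, and Kcnd3 (mean 9.08 RPKM) exceeded Kcnd2 (0.223 RPKM) in all 13. Kcnd1, on the X chromosome (chrX:7822289-7838280 on GRCm38), was at 52.1 ± 18.5 RPKM in female L345, 49.3 ± 6.03 in female L6S1, 57.6 ± 4.71 in male L345 (SD, n = 3 each) and 38.7 ± 26.7 in male L6S1 (n = 4). The 4 male L6S1 libraries A, D, E and F held 322, 114, 54.2 and 329 CPM of Kcnd1. Thus A and F lay among the other groups, while D and E lay below every other library.

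Of the KChIPs, Kcnip4 (chr5:48389502-49524904) was at 163 ± 38.5, 142 ± 34.2 and 165 ± 30.3 RPKM in female L345, female L6S1 and male L345 (SD, n = 3 each) and at 99.7 ± 41.3 RPKM in male L6S1 (n = 4). It exceeded Kcnip2 in 10 of 13 libraries, and the exceptions were male L6S1 D, E and F. Kcnip2 (chr19:45791839-45816061) varied less, at 95.3 ± 14.5, 81.8 ± 13.2 and 104 ± 7.84 RPKM in the same 3 groups and 111 ± 9.53 RPKM in male L6S1. Kcnip3, which also encodes a transcriptional repressor known as DREAM, had a mean of 11.4 RPKM, and Kcnip2 exceeded it in all 13 libraries. Kcnip1 had a mean of 9.30 RPKM, and male L6S1 E, at 146 CPM, was far above the range of 35.1 to 70.3 CPM in the other libraries.

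The Kv1 family had a smaller share. Kcna6 led with a mean of 13.5 RPKM, followed by Kcna4 with 7.19 RPKM, Kcna1 with 3.69 RPKM and Kcna2 with 1.03 RPKM, and each exceeded the next in 13 of 13 libraries. Kcna4 forms an inactivating channel, whereas Kcna1 and Kcna2 form sustained channels best known at juxtaparanodes of myelinated axons. Of the exon bases of Kcna6, 39.6% are shared with an antisense gene, and since strand handling is not given, reads of the pair cannot be told apart. The beta subunits Kcnab2 and Kcnab1, which bind Kv1 channels and can speed their inactivation, had means of 65.7 and 25.6 RPKM, and Kcnab2 was higher in all 13 libraries. Kcnab1 was at 65.3, 43.2 and 160 CPM in male L6S1 D, E and F, below all of the other 10 libraries, which ran from 214 to 307 CPM.

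Delayed rectifiers and their modifiers were in the middle range. The Kv2 pore gene Kcnb2 had a mean of 6.60 RPKM. Modifier subunits are silent alone and reshape Kv2 channels; of these, Kcns3 had a mean of 16.3 RPKM and exceeded Kcnv1 (6.64 RPKM) and Kcns1 (1.20 RPKM) in every library, while Kcng4 was at 0.214 RPKM. Among the Kv3 pores, which serve rapid repolarisation, Kcnc2 (8.51 RPKM) exceeded Kcnc4 (4.14 RPKM), and Kcnc4 exceeded Kcnc1 (0.413 RPKM), in 13 of 13 libraries. Of the ether-a-go-go family, Kcnh6 (16.4 RPKM) exceeded Kcnh2 (0.419 RPKM), the gene of the cardiac hERG channel, in 13 of 13 libraries.

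The M-current genes Kcnq5 and Kcnq3 were low. Kcnq5 had a mean of 0.731 RPKM and Kcnq3 of 0.185 RPKM, and Kcnq5 was the higher in 13 of 13 libraries.

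Of channels opened by calcium or sodium, Kcnt1, the sodium-gated Slack channel, led with 9.09 RPKM and exceeded its relative Kcnt2 (0.859 RPKM) in 13 of 13 libraries. The SK gene Kcnn1 followed with 5.15 RPKM, ahead of Kcnn4 (1.23 RPKM), Kcnn2 (0.845 RPKM) and Kcnn3 (0.243 RPKM). The BK pore Kcnma1 had a mean of 4.01 RPKM, while its beta subunit Kcnmb1, which raises calcium sensitivity, was 19.2 times as high by the median over libraries (12.9 to 55.4 times) and higher in all 13. Kcnmb1 was at 79.6 ± 6.96 RPKM in female L345, 72.9 ± 10.7 in female L6S1, 88.7 ± 7.72 in male L345 (SD, n = 3 each) and 100 ± 21.0 in male L6S1 (n = 4). Kcnmb2, an inactivating beta subunit, had a mean of 10.9 RPKM and Kcnmb4 of 0.428 RPKM. Kcnmb1 (chr11:33963013-33973641, plus strand) lies within the span of Kcnip1 (chr11:33629339-33993152, minus strand), and the pair shares no exon bases.

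Inward rectifiers were sparse. Kcnj3, a pore of G protein-gated (GIRK) channels, had a mean of 4.14 RPKM, Kcnj12 of 3.81 RPKM and Kcnj10, best known in glia, of 1.34 RPKM. The GIRK partners Kcnj9 (0.251 RPKM) and Kcnj6 (0.193 RPKM) were lower, with more than 3 reads in 11 and 13 libraries, and Kcnj5 had no read. Of the exon bases of Kcnj3, 31.1% are shared with an antisense gene. In the HCN family Hcn3 (2.97 RPKM) exceeded Hcn2 (0.524 RPKM) in 13 of 13 libraries, and Hcn2 exceeded Hcn4 (0.282 RPKM) in 11. Of the exon bases of Hcn3, 17.1% are shared with the antisense gene Pklr.

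Summed by family, the low channel share of male L6S1 D and E was uneven. The Kv4 genes summed to 26.3 and 14.2 RPKM in D and E, against 46.2 to 75.9 RPKM in the other 11 libraries. The Kv1 beta genes summed to 53.7 and 28.5 RPKM, against 59.4 to 125 RPKM. The BK beta genes were instead highest there, at 120 and 145 RPKM against 78.3 to 105 RPKM. Of the 34 members with a mean of at least 5 CPM, 8 were lower in both D and E than in any other library, namely Kcnd1, Kcnab1, Kcnd3, Kcnc2, Kcna4, Kcnj3, Kcnh1 and Kcnt2, and 2 were higher in both, namely Kcnmb1 and Kcnj12. Over all genes tested with that mean the shares were 24.9% lower and 18.8% higher, against 23.5% and 5.88% of the members.

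**Figure D2:**
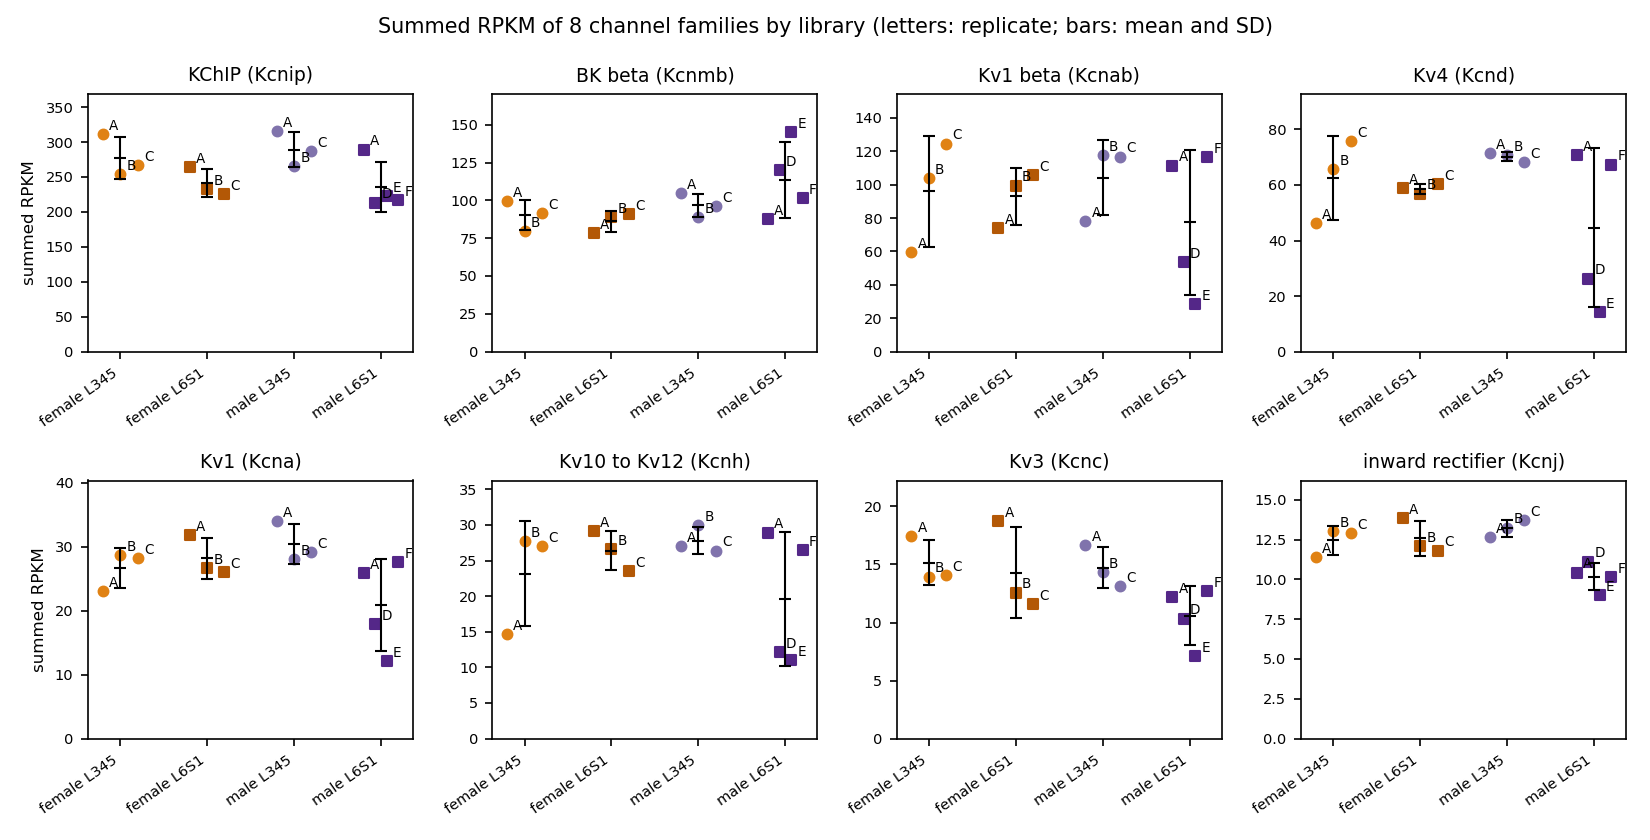
Summed RPKM (scaled with TMM factors) of 8 channel families in each library by group; letters are replicates, and the bars show mean and SD over the 3 or 4 libraries of a group. Male L6S1 D and E lie below the other libraries in the Kv1 beta, Kv4, Kv1, Kv10 to Kv12 and Kv3 families and above them in the BK beta family.

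The comparison of spinal levels asks how Ret-positive neurons of L6S1 ganglia differ from those of L345 ganglia. No channel gene passed in the mean over the sexes. By edgeR's quasi-likelihood test with Benjamini-Hochberg adjustment 0 of 66 members were called, against 69 of 15406 genes tested (0.448%). At an unadjusted p under 0.05 there were 12 members, 5 higher and 7 lower at L6S1, against 8.39% of all genes. DESeq2 called 2 members, Kcnj9 higher and Kcnma1 lower, where it called 1.05% of its genes. Without male L6S1 D and E edgeR called 0 of 67 members, against 0.476% of all genes, with 12 members at an unadjusted p under 0.05 against 7.66% of all genes. The median log2 fold change of the 66 was -0.08, against 0.02 over all genes tested, and 39 of them were negative. In these bulk libraries fewer cells of a type and less RNA per cell cannot be told apart.

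Kcnma1 (ENSMUSG00000063142, chr14:23289431-24004859), the pore of the BK channel, which links calcium entry to repolarisation, separated the levels most cleanly. It was at 29.0, 36.2 and 30.0 CPM in female L345 A, B and C and at 32.5, 32.7 and 32.1 CPM in male L345 A, B and C. At L6S1 it was at 27.7, 25.9 and 20.5 CPM in females A, B and C and at 18.7, 20.0, 14.7 and 19.8 CPM in males A, D, E and F. All 7 L6S1 libraries thus lay below all 6 L345 libraries, the narrowest gap being that between the A libraries of the females. Kcnma1 was the 1 member for which the levels did not overlap in CPM, and 0.227% of all genes tested lay below in this way. The log2 fold change was -0.59 (SE 0.16), with an adjusted p of 0.199 by edgeR and of 0.0280 by DESeq2. Without male L6S1 D and E it was -0.56, with an adjusted p of 0.148 by edgeR. The fold change was negative under every alternative, from -0.67 to -0.47. Its beta subunit Kcnmb1 had a log2 fold change of 0.02 (SE 0.17).

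Kcnj9 (ENSMUSG00000038026, chr1:172321033-172329263), a GIRK subunit, had the largest fold difference at the lowest level. It was at 0.477, 0.253 and 0.904 CPM in female L345 A, B and C and at 0.441, 1.38 and 0.480 CPM in female L6S1, so that the female groups overlapped. In male L345 it was at 0, 0.186 and 0.146 CPM in A, B and C, and in male L6S1 at 0.623, 0.895, 2.22 and 2.66 CPM in A, D, E and F. All 4 male L6S1 libraries exceeded all 3 male L345 libraries, which held 0, 4 and 3 reads of the gene. For this and the other separations within a sex or a level given below, the share of all genes tested was not computed. The log2 fold change over both sexes was 2.05 (SE 0.54, with an adjusted p of 0.171 by edgeR and 0.0226 by DESeq2), and without the filter on low counts, where edgeR called 0.535% of all genes and Kcnj9 as the 1 member, the adjusted p reached 0.0138. Without male L6S1 D and E the log2 value was 2.06 (adjusted p = 0.302), without E and F it was 1.52 (adjusted p = 0.703), and in the fit blocked by replicate letter it was 0.84 (adjusted p = 0.748).

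**Figure D3:**
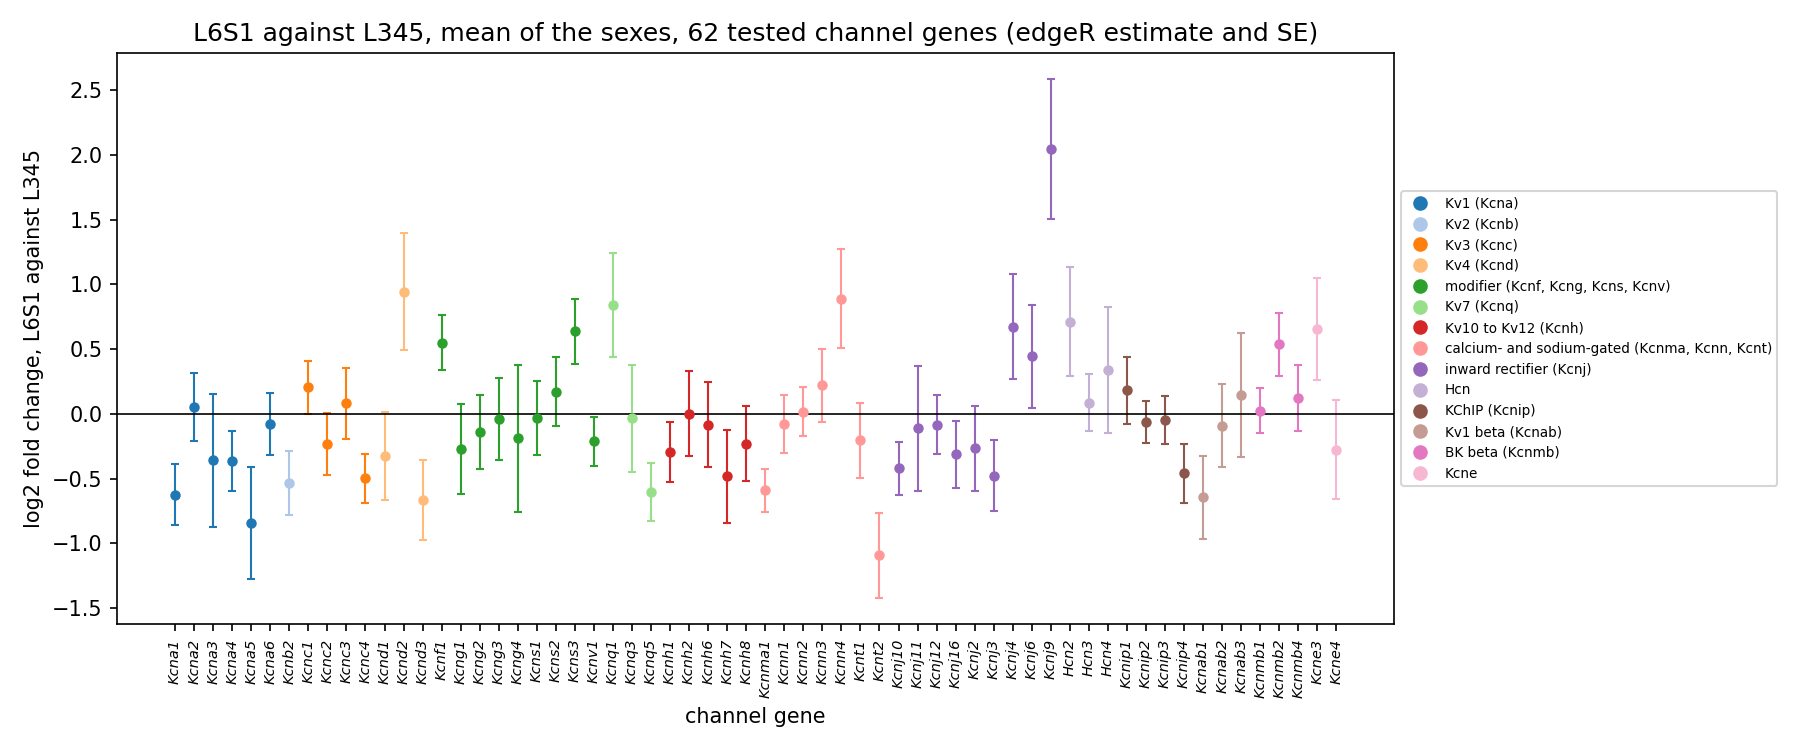
edgeR log2 fold change of L6S1 against L345, averaged over the sexes, with its SE, for 62 of the tested channel genes, ordered and coloured by family. Kcnj9 at 2.05 is the highest and Kcnt2 at -1.09 the lowest, and none passed at an adjusted p under 0.05.

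Kcnt2, the other sodium-gated channel, was at 7.21, 11.3 and 7.39 CPM in female L345 and 7.54, 4.27 and 3.98 CPM in female L6S1 (A, B and C). In males it was at 4.09, 9.12 and 6.03 CPM in L345 A, B and C and at 4.32, 2.07, 0.702 and 2.08 CPM in L6S1 A, D, E and F. In both sexes the A library of L6S1 reached into the range of L345 and the other L6S1 libraries lay below it. The log2 fold change was -1.09 (SE 0.33, with an adjusted p of 0.289 by edgeR), and without male L6S1 D and E it was -0.87 (adjusted p = 0.424). Its abundant relative Kcnt1 had a log2 fold change of -0.20 (SE 0.29).

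The other members with the smallest p in this comparison had fold changes below 2 in either direction. Kcnq5, an M-current subunit, had a log2 fold change of -0.61 (SE 0.22), Kcna1 of -0.63 (SE 0.24), Kcnc4 of -0.50 (SE 0.19), Kcnb2 of -0.54 (SE 0.25) and Kcnd3 of -0.67 (SE 0.31). On the positive side were the modifiers Kcns3 at 0.64 (SE 0.25) and Kcnf1 at 0.55 (SE 0.21), the intermediate-conductance channel Kcnn4 at 0.89 (SE 0.38) and the BK subunit Kcnmb2 at 0.54 (SE 0.24). Their adjusted p by edgeR ran from 0.481 to 0.589. Kcnf1 encodes a silent Kv subunit, and in 6 of 7 L6S1 libraries, from 4.50 to 6.76 CPM, it lay above all 6 L345 libraries. The L345 libraries ran from 3.07 to 4.46 CPM, and male L6S1 D, at 3.53 CPM, lay among them. For Kcnq5, 6 of 7 L6S1 libraries lay below all 6 L345 libraries, and female L6S1 B, at 6.86 CPM, did not.

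By family, 5 of the 6 tested Kv1 genes had negative log2 fold changes, with a median of -0.36 and a range of -0.84 to 0.05. The 3 tested BK beta genes had positive ones, from 0.02 to 0.54, but no family had a called member. Over all genes tested, 48.3% were negative. In females alone 3 of the 6 Kv1 genes and 2 of the 3 BK beta genes were negative. In males alone these counts were 6 and 0. Family values without male L6S1 D and E were not computed. Of the 32 genes listed as partners of these channels (such as Dpp6, Dpp10, Cntnap2, Ank3 and the calmodulins), 28 were tested. In the mean over the sexes 0 of these partners were called by edgeR. At an unadjusted p under 0.05, 4 were lower and 0 higher, and their median log2 fold change was -0.09.

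In females alone, L6S1 against L345, 0 of 66 members were called by edgeR, against 3 of 15406 genes (0.0195%), and 0 by DESeq2. At an unadjusted p under 0.05 there were 2, Kcnc4 and Kcnd2, against 2.25% of all genes. With the replicate letter as a block 0 members were called and 9 had an unadjusted p under 0.05, as had 1213 of 15406 genes. Kcnc4, a Kv3 pore that repolarises spikes quickly, was at 15.8, 15.9 and 17.9 CPM in female L345 A, B and C and at 9.35, 9.74 and 10.2 CPM in female L6S1. The female groups did not overlap, and the mean ± SD went from 16.5 ± 1.20 to 9.75 ± 0.412 CPM (n = 3 each). The log2 fold change was -0.76 (SE 0.28, with an adjusted p of 1 by edgeR). In males the same groups overlapped, at 12.0, 12.7 and 14.4 CPM in L345 against 9.04, 13.9, 7.49 and 13.7 CPM in L6S1 A, D, E and F, and the difference of the effect between the sexes was 0.52 (SE 0.38, with an adjusted p of 0.497). Kcnd2 was at 1.27, 0.811 and 0.205 CPM in female L345 and 4.14, 1.38 and 1.97 CPM in female L6S1, a log2 fold change of 1.73 (SE 0.65, with an adjusted p of 1). Every female L6S1 library exceeded every female L345 library in Kcnd2, by a small margin between the A library of L345 and the B library of L6S1. The next 3 by p were Kcna5 at -1.30 (SE 0.65), Kcnf1 at 0.60 (SE 0.31) and Kcng1 at -0.91 (SE 0.50).

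In males alone, 0 of 66 members were called by edgeR, against 34 of 15406 genes (0.221%). At an unadjusted p under 0.05 there were 15, 3 higher and 12 lower at L6S1, which is 22.7% of the members against 25.3% of all genes. DESeq2 called 6, Kcnj9 higher and Kcnma1, Kcnq5, Kcnt2, Kcna1 and Kcnj3 lower, where it called 6.53% of its genes. Without the low-count filter edgeR called 2, Kcnj9 and Kcnt2, against 0.981% of all genes. Without male L6S1 A edgeR called 12, 1 higher and 11 lower, where it called 20.5% of its genes. Without D and E it called 0, against 0.122% of all genes, with 11 members at an unadjusted p under 0.05 against 7.72% of all genes, and without E and F it called 0. The male L6S1 libraries also differed in cell type markers. The peptidergic sum of those 4 markers ran from 9963 to 28805 CPM in male L6S1 and from 7135 to 8520 CPM in male L345, with 3 of 4 markers higher and 0 lower at an unadjusted p under 0.05. The nonpeptidergic sum ran from 299.5 to 1317 CPM against 1188 to 1563 CPM, with 1 of 5 lower. The glial sum ran from 419 to 958 CPM against 539 to 901 CPM, with 4 of 8 lower, and no marker of these lists was called. The part of these shifts in the channel results was not tested.

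**Figure D4:**
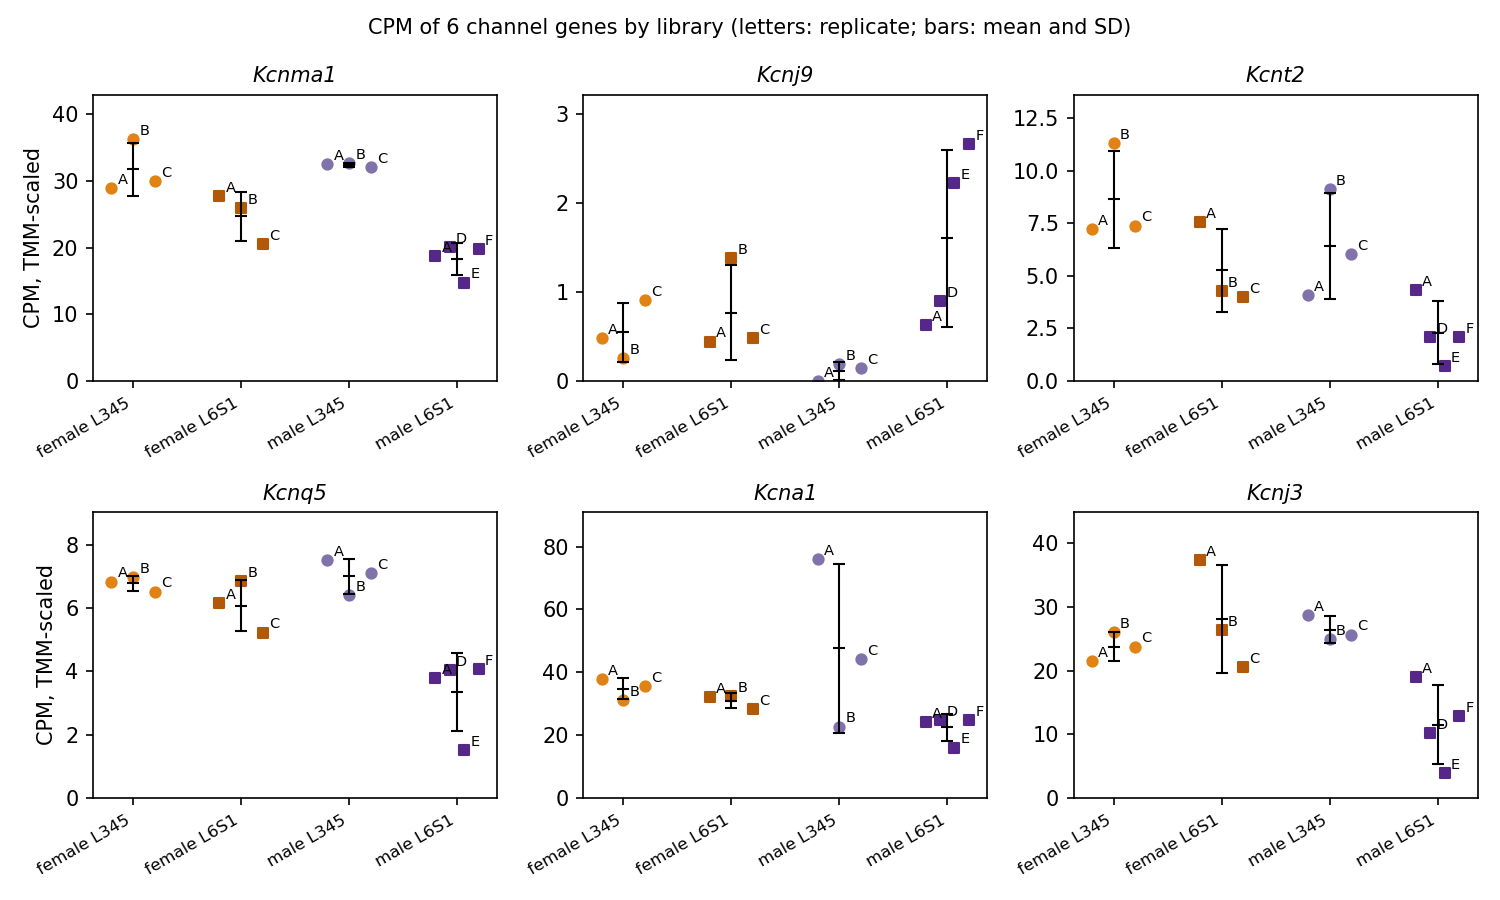
CPM (scaled with TMM factors) of Kcnma1, Kcnj9, Kcnt2, Kcnq5, Kcna1 and Kcnj3 in each library by group; letters are replicates and the bars show mean and SD over the 3 or 4 libraries of a group. Kcnma1 and Kcnj9 separate male L6S1 from male L345, as do Kcnq5 and Kcnj3, whereas in females only Kcnma1 does. The share of all genes tested that separate in this way within a sex was not computed.

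Kcnma1 had a log2 fold change of -0.82 (SE 0.22, with an adjusted p of 0.137) in males, and in CPM the means ± SD were 32.4 ± 0.313 (n = 3) in L345 and 18.3 ± 2.45 (n = 4) in L6S1. Without D and E it was -0.76 (adjusted p = 0.394), so the size hardly moved. Kcnj9 had the smallest p, with a log2 fold change of 3.65 (SE 0.81, with an adjusted p of 0.0880), which rests on 7 reads in all of male L345. Without D and E it was 3.68 (adjusted p = 0.296), but over all alternatives it ran from 2.59, without E and F, to 6.69, with the replicate letter as a block, so the size is poorly fixed.

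Kcnq5 was at 7.51, 6.42 and 7.11 CPM in male L345 A, B and C and at 3.78, 4.05, 1.52 and 4.08 CPM in male L6S1 A, D, E and F. The male groups did not overlap, and E was the lowest by far. The log2 fold change was -1.05 (SE 0.31, with an adjusted p of 0.137), and -0.84 (adjusted p = 0.432) without D and E. In females Kcnq5 was at 6.84, 6.99 and 6.53 CPM in L345 and at 6.17, 6.86 and 5.23 CPM in L6S1, with a log2 fold change of -0.16 (SE 0.33). The test of the difference between the sexes gave -0.89 (SE 0.45, with an adjusted p of 0.409).

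Kcna1 was at 76.2, 22.7 and 44.2 CPM in male L345 A, B and C and at 24.1, 24.8, 16.0 and 24.8 CPM in male L6S1 A, D, E and F. Its groups overlapped, because L345 B was lower than 3 of the L6S1 libraries, and L345 A was well above the rest. The log2 fold change was -1.08 (SE 0.32, with an adjusted p of 0.137), -0.58 (adjusted p = 0.385) without male L345 A and -0.97 (adjusted p = 0.623) without male L6S1 D and E. Kcnt2 had a log2 fold change of -1.48 (SE 0.45, with an adjusted p of 0.137) in males, -1.02 without D and E, and 0.08 with the replicate letter as a block, which in males rests on the single pair of A libraries.

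The effect of level was also compared between the sexes. For that difference 0 of 66 members and 0 of 15406 genes (0%) were called by edgeR, and 0 by DESeq2. At an unadjusted p under 0.05 there were 3 members, Kcnj9, Kcnj3 and Kcnj16, which is 4.55% of the members against 11.7% of all genes. All 3 are inward rectifiers, 1 with a positive and 2 with a negative difference. Kcnj3 was at 21.5, 26.0 and 23.8 CPM in female L345 A, B and C and at 37.4, 26.4 and 20.5 CPM in female L6S1. It was at 28.8, 24.9 and 25.6 CPM in male L345 A, B and C and at 19.0, 10.2, 3.92 and 12.8 CPM in male L6S1 A, D, E and F. The female groups overlapped and the male groups did not. The difference, male minus female, was -1.44 (SE 0.55, with an adjusted p of 0.409) for Kcnj3, 3.21 (SE 1.08) for Kcnj9, -1.27 (SE 0.52) for Kcnj16, a subunit best known from partnership with Kcnj10, -1.70 (SE 0.84) for Kcnq3 and -0.89 for Kcnq5. All 5 had an adjusted p of 0.409 by edgeR. Without male L6S1 D and E the difference was -0.98 for Kcnj3, 3.24 for Kcnj9, -1.03 for Kcnj16, -1.56 for Kcnq3 and -0.68 for Kcnq5, each with an adjusted p of 0.841. In that fit 0 of 67 members were called and 3 had an unadjusted p under 0.05, against 3.39% of all genes. Over all alternatives the difference for Kcnj9 ran from 2.14 to 6.30.

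Males and females were compared at each level, with the caution that the submitters' processing notes are worded differently for the sexes: they name STAR and Salmon for the female libraries only, so that sex and processing cannot be told apart. Averaged over the levels, 0 of 66 members were called by edgeR, against 12 of 15406 genes (0.0779%), and 0 by DESeq2, with 3 members at an unadjusted p under 0.05 against 6.1% of all genes. Without male L6S1 D and E edgeR called 0, against 0.045% of all genes, and 2 members had an unadjusted p under 0.05, against 3.88%. With the replicate letter as a block 1 was called, where 2.4% of all genes were: Kcnab2, higher in males by 0.54 (SE 0.12, with an adjusted p of 0.0369). Without the block its log2 fold change was -0.01 (SE 0.32). Kcnab2 was at 192, 415 and 505 CPM in female L345 A, B and C, 259, 412 and 432 CPM in female L6S1, 250 CPM in male L345 A, 468 CPM in B and 450.0 CPM in C, and 451, 255, 129 and 545 CPM in male L6S1 A, D, E and F. The A libraries of 3 groups and male L6S1 D and E were the low ones, in both sexes.

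At L345 edgeR called 0 of 66 members between the sexes, against 5 of 15406 genes (0.0325%), and DESeq2 called 0. At an unadjusted p under 0.05 there were 2, Kcng1 and Kcnj9, against 0.863% of all genes. Kcng1, a silent modifier of Kv2 channels, was at 2.81, 4.10 and 3.08 CPM in females and 0.669, 1.30 and 1.80 CPM in males (A, B and C). Every male library lay below every female one, and the log2 fold change, male against female, was -1.38 (SE 0.51, with an adjusted p of 1). Kcnj9 had a log2 fold change of -2.13 (SE 0.87), Kcnj4 of 0.92 (SE 0.61) and Kcna1 of 0.45 (SE 0.35), each with an adjusted p of 1. For Kcna1 the sign rests on male L345 A: without it the value was -0.05.

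At L6S1, 0 of 66 members were called by edgeR, against 13 of 15406 genes (0.0844%), with 12 at an unadjusted p under 0.05 (2 higher and 10 lower in males) against 26% of all genes. DESeq2 called 1, Kcnj3, lower in males, where it called 7.72% of its genes, and edgeR without the low-count filter also called Kcnj3 alone, against 0.732% of all genes. With the replicate letter as a block 2 were called, where 4.34% of all genes were: Kcnab2, higher in males by 0.95 (SE 0.19), and Kcnb2 at -1.15 (SE 0.28). Without male L6S1 A edgeR called 9 members, 1 higher and 8 lower, where it called 20.6% of its genes. Without D and E it called 0, against 0.0386% of all genes, with 6 members at an unadjusted p under 0.05 against 6.99%. Kcnb2 was at 174, 108 and 58.2 CPM in female L6S1 A, B and C and at 67.1, 67.9, 47.8 and 58.6 CPM in male L6S1 A, D, E and F. These groups overlapped, since female L6S1 C was within the male range.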

How the data were processed

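Cells sorted for Ret-EGFP were profiled by RNA sequencing of 13 pooled libraries. Per the labels' protocols, the SMARTer Ultra Low Input chemistry started from 10 ng of RNA. For both sexes the submitters' processing notes name Subread, featureCounts 1.4.5 and GRCm38.p2; for females they add Salmon, STAR 2.0.4b and mm10. How strand and reads with several hits were handled is not given in the sources used here. Per gene, the count deposited by the authors is a whole number of reads, without normalization. The deposited CPM is that count scaled to the library's total, and the deposited RPKM is that CPM per kilobase of exon (largest relative differences on recomputing 5.10e-15 and 5.21e-14). Symbols came from GENCODE M21 (GRCm38), which matched 40340 of 41388 identifiers, and the rest held 0.0828% of counts.

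CPM and RPKM printed here were computed from the counts and TMM factors (0.925 and 0.796 in male L6S1 D and E, 1.01 to 1.05 elsewhere). Genes passing filterByExpr were tested with the robust quasi-likelihood test of edgeR 4.0.16 (R 4.3.3), with 1 mean per group, contrasts for level, sex and their interaction, and Benjamini-Hochberg adjustment over 15406 genes; a call is an adjusted p under 0.05. The SE is the absolute log2 fold change over the root of F. The floors of 3 counts cover counting error only, and amplified reads are not independent molecules. Labels describe pools of mice, so p-values measure the spread between pools.

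Members, gene lists and tests were chosen with earlier results of these data known. Named were the 20 members of highest RPKM, the 12 of smallest p for level, 5 for each of 4 further comparisons, those without overlap between levels, those with no read, and a set list of further members. Some items that this rule or the marker lists would name are not reported here; counts over all members include them. Across levels, deviations from group means of same-lettered libraries correlated at 0.520, 0.203 and 0.488 for female A, B and C. The correlation was 0.101 for male A, and 0.221 to 0.505 between the sexes. No library lettered B had its highest correlation, among libraries of other groups, with another B library. The letters were used as pairing only in the replicate block, an alternative fit, and the main fit took no account of them. The labels do not say what a letter marks. Alternatives were DESeq2 1.42.0, its size factors, no filter, the replicate block and leaving out each library. Further ones left out D and E, E and F, or the 4 libraries lettered A. D and E were singled out by their values and not by a label. This choice and that of the A libraries were made after seeing the data. Libraries of a group differed by more than sampling noise. No per-sample column of the files was left unused.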

Additional observations from a re-analysis of the deposited data

Results flagged for a closer look

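In the 4 male L6S1 libraries, 2 of 36 channel genes examined had 1 library far from the other 3, with a gap to the nearest, as a share of the whole range, past Dixon's critical value for 4 samples. Chance flags about 1 in 20. Kcna1 was at 16.0 CPM in male L6S1 E, against 24.1 to 24.8 CPM in A, D and F, a gap of 0.92 of the range. Kcnq5 was at 1.52 CPM in the same library, against 3.78 to 4.08 CPM in the others, a gap of 0.884 of the range. E is also the library with the lowest share of channel reads, 0.177%.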

How the results depend on the processing

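The number of channel genes called was 0 in all 7 comparisons in the fit described, and it was 0 with DESeq2's size factors, without D and E, without E and F, and without the 4 libraries lettered A. With DESeq2 it was 2 for level, 6 for level in males and 1 for sex at L6S1, and without the low-count filter 1, 2 and 1. Leaving out 1 library at a time gave 0 to 12 for level in males and 0 to 9 for sex at L6S1, the upper values without male L6S1 A, and 0 elsewhere. With the replicate block, which left 4 residual degrees of freedom for sex, male L6S1 rests on library A alone. Calls of that fit for sex and for sex at L6S1 are therefore not counted. The block changed no call of a channel gene for level, for level in females or for sex at L345. For level in females it called 51 genes higher and 5 lower over all genes tested, against 3 and 0 without it. There 9 members had an unadjusted p under 0.05, against 2 without the block. Of 640 fold changes of named genes under alternatives, 638 kept their direction; the exceptions were Kcnt2 for level in males, 0.0775 with the replicate block, and Kcna1 for sex at L345, which ran from -0.0546 (without male L345 A) to 0.788 over the libraries left out. The cause of these changes was not tested. Of 80 group means of the 20 most abundant genes, 2 moved by more than 1 SD with the deposited CPM: Kcna6 in male L345 (89.8 CPM) and Kcnv1 in female L6S1 (33.7 CPM). Depth limits the members at or under the 3-read floor, and 57 of 81 exceeded it in every library.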

Other observations

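Apart from male L6S1 D and E, the A libraries of female L345, female L6S1 and male L345 differed from the other 8 libraries across all genes, in a way that the labels do not describe. Of the 34 members with a mean of at least 5 CPM, 4 (11.8%) were higher in these 3 libraries than in the other 8, and 4 (11.8%) were lower, against 15.2% higher and 19.2% lower among all genes of that level. The shares of the channel genes rest on 4 members each, and their difference from those of all genes was not tested. Kcnd3 was at 137 to 183 CPM in the 3 A libraries and at 48.5 to 92.1 CPM in the other 8, and Kcnb2 at 149 to 174 CPM against 58.2 to 135 CPM. Kcnip4 (648 to 748 against 255 to 580 CPM) and Kcnc2 (72.0 to 92.6 against 44.0 to 57.6 CPM) were also higher. Kcnab2 was lower, at 192 to 259 CPM against 412 to 545 CPM, as were Kcnh6, Kcnt1 and Hcn3. These 8 genes were chosen after their values were seen, and male L6S1 A was among the other 8 libraries.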
